A study of Mus musculus with 2 samples.

Results

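The enzyme families described here are the cytochromes P450 (Cyp), UDP-glucuronosyltransferases (Ugt), sulfotransferases (Sult), glutathione S-transferases (Gst), alcohol dehydrogenases (Adh) and aldehyde dehydrogenases (Aldh). Members were taken by gene symbol, as every symbol of the count matrix that starts with one of these 6 stems and holds a digit, which gave 201 of 32285 genes. Of these, 100 had at least 50 UMIs (unique molecular identifiers, each standing for 1 captured transcript) over both libraries and were used, and 56 had 0 UMIs. The Gst family was detected most completely, with 21 of 22 symbols used and 0 at 0 UMIs. By contrast, 20 of 61 Cyp1 to Cyp3 symbols, 11 of 21 Cyp4, 7 of 19 other Cyp, 10 of 22 Ugt, 6 of 21 Sult, 6 of 7 Adh and 19 of 21 Aldh symbols were used. The symbol rule also took 7 Cypt genes, all at 0 UMIs, which are cysteine-rich sperm proteins and not P450 enzymes, and Adhfe1 and Cyp4x1os, which belong to no classical family. The lowest members used were Cyp4f15 with 50 UMIs and Aldh3b2 and Cyp7b1 with 55 each, and the highest left out were Ugt2b38 with 45, Cyp11a1 with 44 and Cyp4f39 with 43.

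The study compared single-cell 3′ RNA-seq of mouse polyps with that of normal duodenum, with 1 library per group. The normal library (WT) pooled duodenum from 3 Lkb1+/+;Myh11-Cre/ERT2 mice. The polyp library (Lkb1_Het) pooled polyps from 3 Lkb1flox/+;Myh11-Cre/ERT2 mice, so both groups carry the Cre transgene and 1 floxed allele of Lkb1, the gene of a kinase also named Stk11, differs in genotype while the tissue sampled differs as well. Myh11 is a smooth muscle gene, so the epithelial cells in which most members were counted are not the cells that this promoter is known for. Mice cannot be told apart within a library, their age is not given in the labels, and both libraries carry the tissue label duodenum although the markers below include gastric ones.

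These families share the chemical work of clearing drugs, plant compounds, bile acids, retinoids and reactive aldehydes. In the first phase P450s and dehydrogenases oxidise a compound, and in the second phase Ugt, Sult and Gst enzymes attach glucuronic acid, sulfate or glutathione so that exporters can remove it. Villus enterocytes are known as the main site of this work in the small intestine, with Cyp3a enzymes as its best known P450s, and nuclear receptors together with the aryl hydrocarbon receptor are known to control many of the genes.

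Promoter sequences are shown for 4 members on which the comparison below turns, 3 of them far lower and 1 higher in polyp epithelium. Each is the 250 bases before the RefSeq transcription start, on build GRCm38.p6, written 5′ to 3′ on the strand of the gene. Capitals mark matches to 4 motifs searched on both strands: GCGTG (the core of a xenobiotic response element, bound by the aryl hydrocarbon receptor), TGACNNNGC (the core of an antioxidant response element), CAAAGTCCA (a repeat of the kind bound by HNF4) and, by name, an HNF1 site. Cyp1a1 lies on the plus strand with the window at chr9:57697363-57697612, Cyp3a11 on the minus strand at chr5:145879855-145880104, Adh6a on the plus strand at chr3:138313036-138313285 and Gsta3 on the plus strand at chr1:21240335-21240584.
Cyp1a1: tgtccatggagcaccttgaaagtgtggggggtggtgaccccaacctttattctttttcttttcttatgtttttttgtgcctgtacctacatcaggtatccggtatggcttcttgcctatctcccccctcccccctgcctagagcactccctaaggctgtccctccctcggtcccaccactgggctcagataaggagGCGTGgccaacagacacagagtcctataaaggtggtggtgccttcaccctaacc
Cyp3a11: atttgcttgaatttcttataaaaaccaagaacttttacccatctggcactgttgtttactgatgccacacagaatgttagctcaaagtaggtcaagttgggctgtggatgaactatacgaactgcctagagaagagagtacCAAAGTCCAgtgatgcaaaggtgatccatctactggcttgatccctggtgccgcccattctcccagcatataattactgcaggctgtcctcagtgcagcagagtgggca
Adh6a: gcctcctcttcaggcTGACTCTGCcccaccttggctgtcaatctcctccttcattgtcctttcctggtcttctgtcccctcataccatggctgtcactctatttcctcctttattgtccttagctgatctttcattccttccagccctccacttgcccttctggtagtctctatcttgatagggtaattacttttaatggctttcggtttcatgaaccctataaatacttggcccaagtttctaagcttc
Gsta3: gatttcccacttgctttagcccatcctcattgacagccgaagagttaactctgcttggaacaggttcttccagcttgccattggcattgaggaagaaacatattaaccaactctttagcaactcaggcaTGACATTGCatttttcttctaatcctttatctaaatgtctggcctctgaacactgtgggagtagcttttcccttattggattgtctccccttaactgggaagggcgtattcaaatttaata

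Of the 100 members, 81 matched a gene of the RefSeq promoter table. The GCGTG core was found in the window of 25 of the 81 (30.9%) and of 30.9% of all 27025 genes in the table, and the TGACNNNGC core in 8 (9.88%) against 11.5%. The HNF4-type repeat was found in 3 members (3.7%: Cyp2c65, Cyp2c68 and Cyp3a11) against 0.451% of all genes. The HNF1 site was also found in 3 members (3.7%: Cyp4f40, Sult1d1 and Ugt1a1) against 0.44%. A match is a description of letters only, and these cores also occur before many genes outside the families. The match begins 54 bases before the start of Cyp1a1, 109 before Cyp3a11, 235 before Adh6a and 121 before Gsta3.

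The libraries held 9950 normal and 14327 polyp barcodes with 39222238 and 63566462 UMIs, and the members took 0.457% and 0.639% of these UMIs. Cells were kept with at least 500 UMIs, 250 genes and at most 25% mitochondrial UMIs, which left 3167 normal and 7887 polyp cells after removal of likely doublets. The mitochondrial limit alone was exceeded by 64.9% of normal and 39.1% of polyp barcodes, so the normal cells described are a smaller and more selected part of their library. The libraries shared 44 barcode sequences. Cells of at least 1000 UMIs were named 1 by 1 from marker genes that include no member, and a class name below stands for cells that resemble that type. Epithelial cells numbered 653 in the normal and 3363 in the polyp library, with median depths of 21507 and 9605 UMIs per cell. Their make-up differed: 208 normal and 1 polyp cell were enterocyte-like, whereas 7 normal and 578 polyp cells were like gastric surface mucous cells (Gkn1, Gkn2, Muc5ac, Tff1, Psca). Further polyp classes were gland mucous (502 cells, 21 in the normal library), chief-like (177, 0), Clu- and Spp1-high regenerative (959, 6) and Chil4-high epithelium (237, 0).

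Levels are counts per 1000000 UMIs of a class (CPM). The 3′ protocol counts 1 end per transcript, so a level does not scale with transcript length. Intervals are 95% Poisson for levels and 95% conditional binomial for ratios, and cover counting error only. With 1 library per group there is no replicate error and no test, and a difference between mice, sites or preparations cannot be told apart from a difference between genotypes. As a gauge of free RNA in the droplets, levels are set beside those in T-like cells (760 normal, 501 polyp), which are not known for most of these enzymes. All members summed to 628 CPM in the normal and 1423 CPM in the polyp cells of that class.

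Normal enterocyte-like cells and polyp surface mucous-like cells devoted almost the same share of their transcripts to the families. The levels were 17585 CPM (17461 to 17710) and 17538 CPM (17458 to 17618). The families contributed to this share in different proportions, although Gsta1 was the highest member in both classes. In enterocyte-like cells 47.5% of the member UMIs came from Gst genes, 16% from Sult, 15.2% from Adh and 9.37% from Cyp1 to Cyp3. In surface mucous-like cells 86.2% came from Gst, 5.79% from Sult, 1.20% from Adh and 1.99% from Cyp1 to Cyp3. The surface mucous-like profile was also narrower: its 3 highest members held 76.7% of the member UMIs and 16 members reached 100 CPM, against 42.7% and 28 members in enterocyte-like cells. Among the other named classes of at least 20 cells the next were Chil4-high cells at 9167 CPM, polyp tuft-like cells at 8859, regenerative cells at 4225 and normal enteroendocrine-like cells at 3951.

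**Figure D1:**
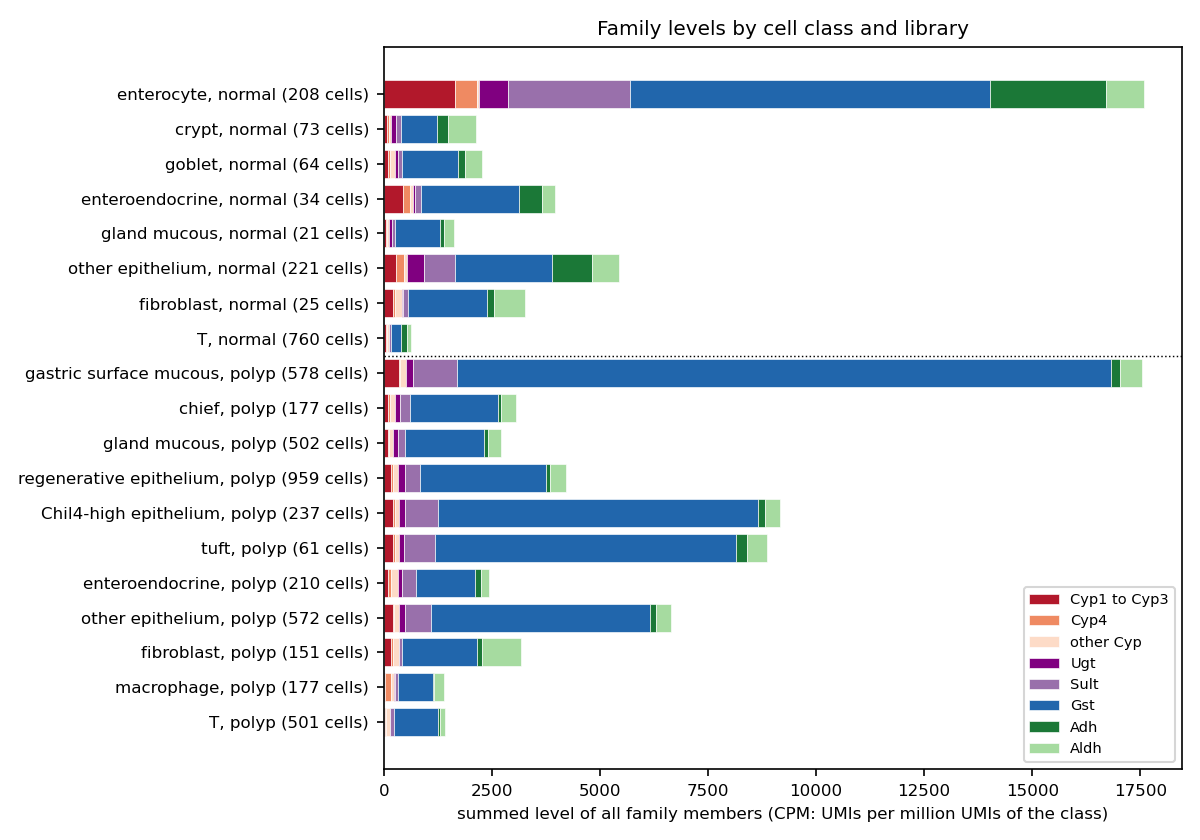
Summed level of each enzyme family (colours) in CPM by cell class, with normal classes above and polyp classes below the dotted line. Normal enterocyte-like (17585 CPM) and polyp gastric surface mucous-like cells (17538 CPM) have bars of near equal length, but the polyp bar is mostly Gst.

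Single members were compared over the whole epithelium, where 87 members had at least 50 UMIs. The cell make-up differs there, with 208 normal and 1 polyp enterocyte-like cells and 7 and 578 surface mucous-like cells. In these ratios a difference in make-up cannot be told apart from a difference in level within a cell type. At 2-fold, 41 of the 87 members were lower in the polyp library (47.1%), against 12.7% of all 12250 genes with as many UMIs. Another 21 were higher (24.1%), against 17.6% of all genes, and 25 lay within 2-fold. Past 2-fold in either direction were 30.3% of all genes. The median member ratio was -0.90 on the log2 scale and that of all genes 0.05. Of the lower members, 40 of 41 stood at least 2-fold above the normal T-like level, the exception being Adh5. Of the higher ones, 18 of 21 stood at least 2-fold above the polyp T-like level, with Adhfe1, Cyp51 and Cyp4f17 below that. The same count over all genes is not given, and T-like cells were shallower than epithelial cells, with medians of 3203 normal and 2130 polyp UMIs. When only epithelial cells with no named type were compared (221 normal and 572 polyp, the latter led by cell cycle genes), 24 of 64 members were lower (12.3% of 8975 genes) and 15 higher (12.1%). That comparison was added after the data had been seen.

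**Figure D2:**
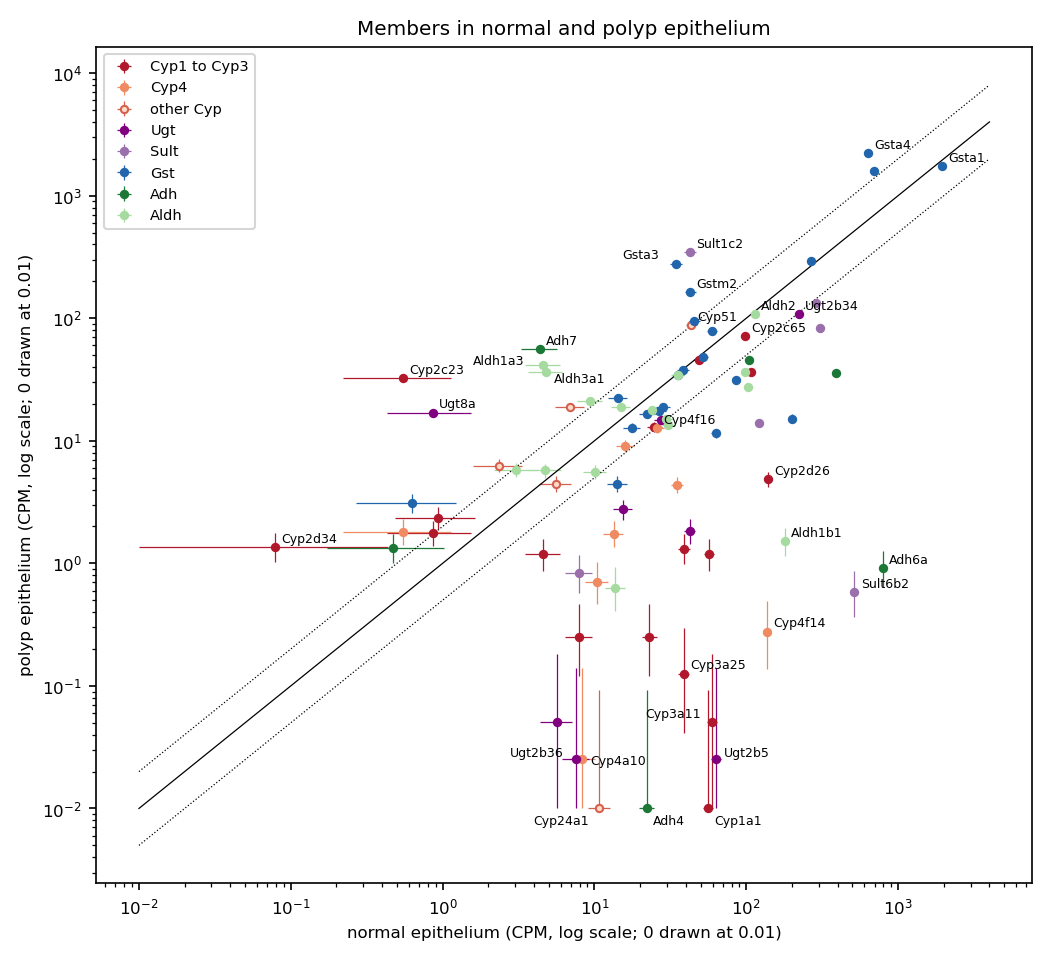
Level of each of the 87 members in normal (x axis) and polyp epithelium (y axis) in CPM on log scales, coloured by family, with 95% Poisson intervals. The solid line marks equality and the dotted lines 2-fold; 41 points lie below the lower dotted line, and values of 0 are drawn at 0.01.

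Among Cyp1 to Cyp3 members, the P450s best known for drug metabolism, 10 of 17 were lower and 4 higher. Cyp1a1, an aryl hydrocarbon receptor target that oxidises polycyclic aromatics, had 712 UMIs in normal epithelium (55.7 CPM) and 0 in polyp epithelium, which is at least 736-fold lower. Within the normal library it was highest in enterocyte-like cells, at 152.8 CPM (141 to 164.8), with 1.10 CPM in crypt-like cells and 79.8 CPM (45.6 to 129.5, 16 UMIs) in the 17 Paneth-like cells. Cyp3a11, a main drug-oxidising P450 of mouse intestine and liver, gave 59.6 CPM in normal epithelium against 0.05 CPM (762 and 2 UMIs, 1181-fold lower, 326 to 9768). It too peaked in enterocyte-like cells (167 CPM), with 59.8 CPM in enteroendocrine-like cells. Cyp3a25, of the same subfamily, was at 38.6 and 0.13 CPM, 306-fold lower (130 to 947).

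Cyp2d26, the highest Cyp1 to Cyp3 member of normal epithelium, was at 140 and 4.85 CPM, 28.9-fold lower (24.9 to 33.7). Cyp2b10, a target of the receptor CAR, was 29.6-fold lower (22.2 to 40.1) at 38.8 and 1.31 CPM. The remaining lower members of the group were Cyp2c55, Cyp2c66, Cyp2c68, Cyp2u1 and Cyp3a13, at 2.94-fold (Cyp3a13) to 91.1-fold (Cyp2c66) lower. Not every member took part: Cyp2c65, the highest of the group in polyp epithelium, stood at 97.6 CPM in normal and 71.9 in polyp epithelium, a ratio of 0.737 (0.689 to 0.788). It was at 197.5 CPM in normal enterocyte-like and at 137.9 CPM in polyp surface mucous-like cells.

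Of the 4 higher members of the group, Cyp2c23 stood out. This P450, known in mouse kidney as an epoxygenase of arachidonic acid, had 7 UMIs in normal and 1286 in polyp epithelium, at 0.548 and 32.5 CPM, a ratio of 59.3 (28.7 to 148). Its polyp level was spread over classes, at 32.3 CPM in surface mucous-like, 47.1 in Chil4-high and 50.8 in tuft-like cells, and 5.01 in T-like cells. The others were low: Cyp2d34 at 1.36 CPM in polyp epithelium (1 and 54 UMIs, ratio 17.4, 3.0 to 701), Cyp2d10 at 2.35 and Cyp2r1, a vitamin D 25-hydroxylase, at 1.77. Of the sequence at the 3′ end of Cyp2d10, 28.6% of the 60-base words also occurred in other genes, so its reads may be split with relatives. The share was 16.3% for Cyp2d34 and, among lower members, 43.3% for Cyp2c68, 20.4% for Cyp2d26, 15.2% for Cyp2c66 and 11.7% for Cyp3a25. The same limit applies to these.

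Cyp4 enzymes, which hydroxylate fatty acids and eicosanoids, had 6 of 8 members lower and 1 higher. Cyp4f14, the highest in normal epithelium, was at 137 and 0.278 CPM (1751 and 11 UMIs), 493-fold lower (275 to 990). Cyp4a10, a target of the fatty acid receptor PPAR-alpha, had 106 UMIs in normal and 1 in polyp epithelium, 329-fold lower (57.7 to 13096). Cyp4b1, Cyp4v3 and Cyp4f40 were 14.7-, 7.96- and 7.68-fold lower. Cyp4f16, the highest of the family in polyp epithelium at 12.7 CPM, lay at the threshold with 2.03-fold (1.76 to 2.34). The higher member, Cyp4f17, had 7 and 72 UMIs and a polyp level (1.82 CPM) close to that of T-like cells (1.67).

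P450s of other groups mostly serve sterols and vitamins, and here 1 of 5 was lower and 3 higher. Cyp24a1, the vitamin D 24-hydroxylase, had 138 UMIs in normal and 0 in polyp epithelium, at least 143-fold lower from 10.8 CPM. Cyp51, the lanosterol demethylase of cholesterol synthesis, was at 43.3 and 88.6 CPM, a ratio of 2.04 (1.87 to 2.24), but polyp T-like cells held 70.1 CPM as well. Its level differed by class, with 140 CPM in polyp enteroendocrine-like and 118 in polyp dendritic-like cells against 21.2 in normal enterocyte-like cells. Cyp39a1, an oxysterol hydroxylase, was 2.68-fold and Cyp20a1, whose substrate is not established, 2.72-fold higher.

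Alcohol dehydrogenases changed places. Adh6a, the highest Adh of normal epithelium, was at 794 and 0.909 CPM (10155 and 36 UMIs), 874-fold lower (631 to 1249). Adh1, the classical ethanol and retinol dehydrogenase, was 10.9-fold lower (10.3 to 11.6), at 390 and 35.8 CPM. Adh4 had 282 and 0 UMIs, at least 291-fold lower, and Adh5, the broadly expressed formaldehyde-oxidising enzyme, was 2.28-fold lower. Adh7, known as the stomach form that oxidises retinol and ethanol, was instead higher, at 4.38 and 55.9 CPM (ratio 12.8, 9.80 to 17.0). Surface mucous-like cells led it in the polyp library at 140.7 CPM, ahead of tuft-like (73.9) and Chil4-high cells (63.3). The other higher symbol, Adhfe1, is an iron-dependent enzyme of another protein family and had 59 UMIs in all.

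Aldehyde dehydrogenases were mixed, with 5 of 16 lower, 3 higher and 8 within 2-fold. Aldh1b1, a mitochondrial enzyme known from intestinal stem cells, was at 179 and 1.51 CPM (2286 and 60 UMIs), 118-fold lower (91.4 to 155). Unlike the enterocyte genes above it was highest in normal crypt-like cells, at 421.8 CPM (393 to 452.7), with 152.2 in goblet-like and 62.6 in enterocyte-like cells. In the 59 polyp cells with crypt markers it had 1 UMI, though these cells were led by Slc12a2 and Mug1 and the normal ones by Olfm4, so they were not compared as 1 class. Aldh3b1, Aldh9a1, Aldh1a1 and Aldh16a1 were 21.7-, 3.72-, 2.69- and 2.27-fold lower.

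The 3 higher Aldh members were Aldh1a3, Aldh3a1 and, at a ratio of 2.26, Aldh6a1 of valine breakdown. Aldh1a3, which makes retinoic acid from retinal, was at 4.62 and 41.8 CPM, a ratio of 9.06 (6.99 to 12). Regenerative cells held the most among the larger polyp epithelial classes, at 62 CPM (57.2 to 67.1). Aldh3a1, which clears lipid aldehydes and is known from cornea and stomach, was at 4.77 and 36.1 CPM, a ratio of 7.58 (5.86 to 9.96). It was concentrated in surface mucous-like cells (110.7 CPM) and had 0 UMIs in normal enterocyte-like cells. Of its 68 UMIs in the whole normal library, 57 lay in the 7 normal surface mucous-like cells. Its normal level and the ratio thus rest mainly on 7 cells. The mitochondrial Aldh2, the main acetaldehyde-clearing enzyme and the highest Aldh of polyp epithelium, hardly differed in level, at 114 and 108 CPM (ratio 0.949, 0.894 to 1.01).

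In the Ugt family 6 of 8 members were lower. Ugt2b5 was at 63.2 and 0.025 CPM (808 and 1 UMIs), 2504-fold lower (448 to 99026), and Ugt2b36 had 97 and 1 UMIs, 301-fold lower (52.7 to 11994). Ugt2a3 and Ugt1a7c were 23.0- and 5.57-fold lower. Ugt2b34, the highest Ugt of both libraries, was at 222 and 108 CPM, 2.05-fold lower (1.96 to 2.15). Ugt1a1, the bilirubin-conjugating form, had 72 and 2 UMIs, but Ugt1a genes share their last exons: all 3′ words of Ugt1a1, Ugt1a5 and Ugt1a6a (100%) and 43.5% of those of Ugt1a7c occur in sister genes, so the split among them is uncertain.

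The higher Ugt was Ugt8a, which is not a detoxifying form: it adds galactose to ceramide and is known from myelin. It had 11 and 673 UMIs, at 0.861 and 17.0 CPM (ratio 19.7, 11.0 to 39.7). In the polyp library it was clear of every other class in the cells with crypt markers, at 56.4 CPM (39.3 to 78.5), with 26.2 in regenerative, 25.7 in enteroendocrine-like and 6.59 in surface mucous-like cells. Gland mucous cells held like levels in both libraries, 15.4 CPM (6.17 to 31.6) in normal and 17.7 (14.1 to 22) in polyp cells.

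Sulfotransferases had 5 of 6 members lower and 1 higher. Sult6b2 was at 516 and 0.581 CPM (6592 and 23 UMIs), 888-fold lower (591 to 1402), and was highest in enterocyte-like cells (1269 CPM). The size of that fold depended on the processing: it was 16013 with a stricter cell filter and 275 with a mean over cells. Sult1a1 was 9.49-fold, Sult2b1, a cholesterol sulfotransferase, 8.70-fold, and Sult1b1, known for thyroid hormone and phenols, 3.73-fold lower. Sult1d1 was 2.15-fold lower (2.06 to 2.24) over the epithelium, yet at 200.7 CPM (177 to 226.4) in polyp and 103.7 (67.7 to 151.9) in normal enteroendocrine-like cells. Sult1c2 was the higher one, at 42.6 and 346 CPM, a ratio of 8.12 (7.45 to 8.86), with 539 CPM in surface mucous-like and 46.0 in enterocyte-like cells.

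Glutathione S-transferases, which couple glutathione to electrophiles, had 4 of 21 members lower, 6 higher and 11 within 2-fold, and their median log2 ratio was -0.05. Gsta1 was the highest member of normal epithelium and stood at 1945 and 1744 CPM, a ratio of 0.896 (0.884 to 0.910). It was at 4456 CPM in normal enterocyte-like and at 5600 CPM in polyp surface mucous-like cells. Of its 3′ words 87.5% also occur in Gsta2, Gm3776 or Gm10639, so the name stands for this group of near-identical genes.

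Gsta4, known for conjugating the lipid aldehyde 4-hydroxynonenal, was the highest member of polyp epithelium, at 635 and 2227 CPM (ratio 3.51, 3.43 to 3.59). Gsto1, an omega-class reductase, was at 697 and 1604 CPM (ratio 2.30, 2.25 to 2.35). Gsta3, known for steroid isomerisation, was at 34.6 and 279 CPM (ratio 8.07, 7.34 to 8.89), and Gstm2 at 42.8 and 163 (ratio 3.81, 3.49 to 4.16). Polyp T-like cells held 265 CPM of Gsta4, 253 of Gsto1, 40.1 of Gsta3 and 15.9 of Gstm2, below the epithelial level in each case. With the T-like level of each library subtracted, the ratio was 3.20 for Gsta4, 6.99 for Gsta3 and 3.66 for Gstm2. Gstm5 and Gsto2 were the other higher members, at ratios of 2.10 and 4.96.

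Lower Gst members were of the mu and theta classes. Gstm3 was 13.3-fold lower (12.1 to 14.5), at 201 and 15.1 CPM, and Gstm6, Gstm4 and Gstt1 were 5.47-, 3.21- and 2.74-fold lower. Gstm1 and Gstk1 hardly differed over the epithelium, at ratios of 1.09 (1.05 to 1.13) and 0.994 (0.897 to 1.10). Gstp1 and Gstp2 share 75.9% and 53.2% of their 3′ words with each other or a pseudogene, and were at ratios of 1.31 and 1.58.

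**Figure D3:**
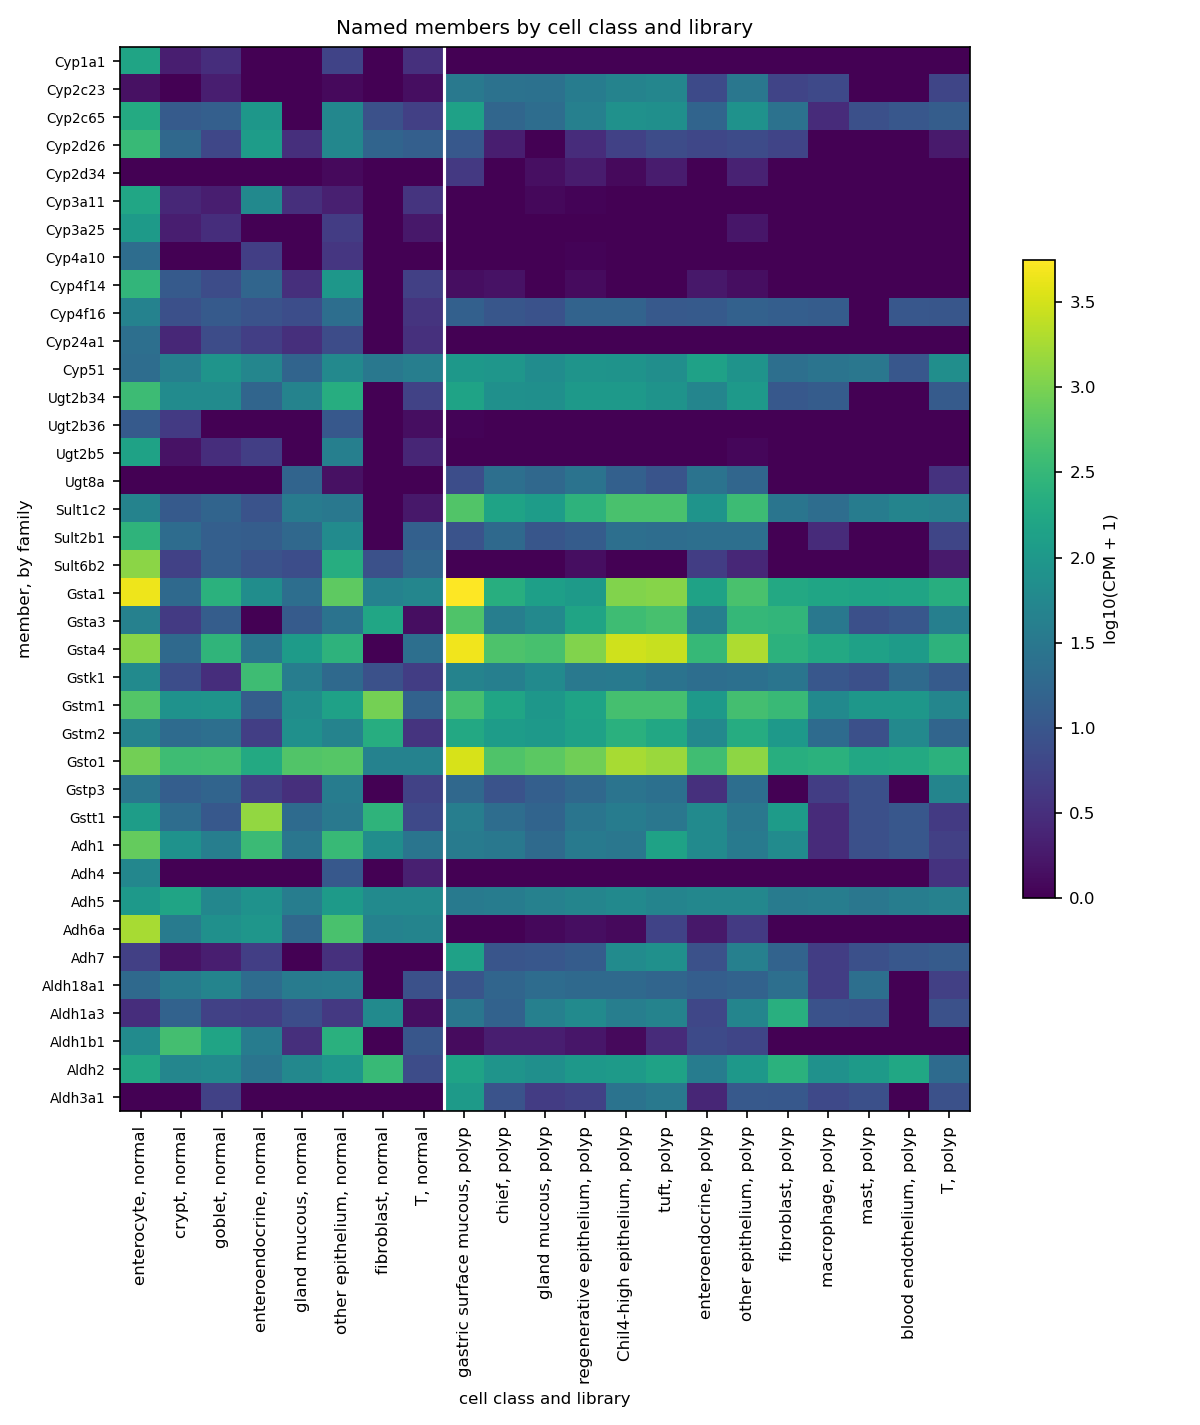
Level of the named members (rows, by family) in cell classes (columns, normal left and polyp right of the white line) as log10(CPM + 1). Cyp1a1, Cyp3a11, Cyp4f14, Ugt2b5, Sult6b2 and Adh6a are bright in normal enterocyte-like cells and dark in every polyp column, whereas Gsta1, Gsta4 and Gsto1 are brightest in polyp surface mucous-like cells.

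The 7 normal cells named gastric surface mucous-like (232867 UMIs together) gave a view of that class outside polyps, although 7 cells were under the minimum of 20 set for a class and so are given as values only. They held 8589 CPM of Gsta1 (8216 to 8973), 5162 of Gsta4 (4874 to 5462) and 3758 of Gsto1 (3513 to 4015), the same 3 leading members as in the 578 polyp cells. Aldh3a1 was at 245 CPM (185 to 317) and Adh7 at 107 (69.5 to 158), and both had 0 UMIs in normal T-like cells. Sult1c2 was at 451 CPM (369 to 546) and Gsta3 at 245 (185 to 317), against 539 and 510 in the polyp cells. The polyp cells were at lower values for Aldh3a1 (110.7 CPM), Gsta1 (5600), Gsta4 (4580) and Gsto1 (3272). For Adh7 they were at 140.7 CPM. The intervals cover counting error only and not the spread between 7 cells. A difference between these cells and the polyp cells was not tested. Some other members that were higher in polyp epithelium had few UMIs in these 7 cells: Cyp2c23 had 3, Ugt8a 2 and Aldh1a3 1.

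**Figure D4:**
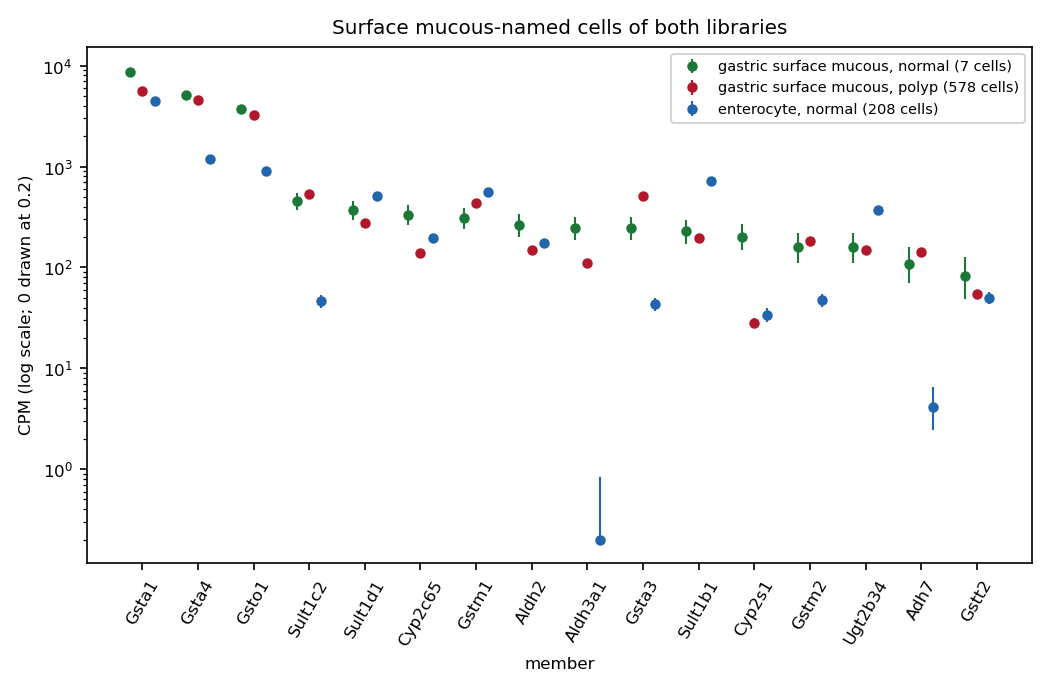
Level in CPM (log scale) of the 16 highest members of the 7 normal surface mucous-like cells, beside the 578 polyp cells of that class and the 208 normal enterocyte-like cells, with 95% Poisson intervals. Gsta1, Gsta4 and Gsto1 lead both surface mucous sets, and Aldh3a1 and Adh7 separate both from enterocyte-like cells.

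Across classes of at least 20 cells in a library, 39 members were highest in enterocyte-like cells of the normal library with an interval clear of the next class, and 14 were highest in surface mucous-like cells of the polyp library. No such count is given for all genes, and clear intervals come more easily in classes with many UMIs. These classes held 4390345 and 10476091 UMIs, against 455949 in normal gland mucous and 1083261 in polyp tuft-like cells. Of these 14, 11 were led clearly by enterocyte-like cells in the normal library: Cyp2c65, Cyp2j6, Cyp3a13, Gsta1, Gsta2, Gsta4, Gsto1, Gstp1, Sult1b1, Sult1d1 and Ugt2b34. The other 3, Adh7, Aldh3a1 and Sult1c2, had no clear leader among those normal classes. The 7 normal surface mucous-like cells were outside that ranking. They held more than the enterocyte-like cells, with separate intervals, for 4 of the 39 members: Cyp2c65 (331 CPM), Gsta1, Gsta4 and Gsto1. The 7 cells also held more Adh7, Aldh3a1, Sult1c2 and Cyp2s1 than any ranked normal class. Their intervals leave out the spread between the 7 cells, so these are values only. Cyp2s1 was at 202 CPM (148 to 268) in the 7 cells, against 33.9 in enterocyte-like and 28.2 in polyp surface mucous-like cells.

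Enteroendocrine-like cells, hormone-secreting cells of the epithelium, could be compared with 34 normal and 210 polyp cells, but were not alike: the normal cells were led by Reg4, Sct, Tph1 and Tac1 and the polyp cells by Sst, Gast, Pyy and Ghrl. Of 19 members with 50 UMIs, 4 were lower (12.1% of 4104 genes) and 9 higher (12.2%). Normal enteroendocrine-like cells were marked by Gstt1, a theta-class transferase, at 1367 CPM (343 UMIs), far above the 121 CPM of enterocyte-like cells. In polyp enteroendocrine-like cells Gstt1 was at 61.9 CPM, 22.1-fold lower (17.3 to 28.5). Gstk1, a kappa-class transferase of mitochondria and peroxisomes, was likewise at 382.7 and 21.9 CPM, Adh1 at 362.8 and 61.9, and Gstt2 at 63.8 and 27.2. Cyp4b1 was the third gene with its clear highest normal level in these cells, at 87.7 CPM. Of the 9 higher members only 4 stood at least 2-fold above polyp T-like cells (Gstm1, Gstm2, Cyp51 and Ugt2b34), while Gsta1, Gsta3, Gsta4, Gsto1 and Sult1c2 did not.

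Gland mucous cells had Muc6 among the leading genes of both libraries and numbered 21 normal and 502 polyp cells. Here 0 of 41 members were lower (2.27% of 6616 genes) and 16 were higher (18.4%), while the median gene was 0.34 higher on the log2 scale. Gsta4 was at 112 and 446 CPM (ratio 3.99, 3.02 to 5.37), against 265 CPM in polyp T-like cells. Of the 16 higher members 8 stood at least 2-fold above polyp T-like cells, among them Gstm5 at 59.2 and 130 CPM and Aldh1a3 at 6.58 and 41.9 CPM (3 and 196 UMIs, ratio 6.37, 2.15 to 31.1). Gsta1, at a ratio of 5.84, was lower in the polyp cells of this class (128 CPM) than in polyp T-like cells (222 CPM). The part of free RNA in that ratio was not tested. Relative to the median gene 14 members were higher and 2 lower. The share of all genes higher at that scaling is not given, so the 14 are no result about the members against all genes.

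Fibroblasts carried a set of their own. In 25 normal and 151 polyp fibroblast-like cells, 3 of 10 members with 50 UMIs were lower (7.39% of 1530 genes) and 4 higher (11.4%). Gstm1 was the highest member, at 906 CPM (752 to 1084) in normal and 349 (294 to 412) in polyp cells, a ratio of 0.385 (0.300 to 0.496). Gstt1 was at 272 and 114 CPM (ratio 0.419) and Gstm2 at 219 and 104 (ratio 0.475, 0.289 to 0.790). Aldh1a3 was higher, at 60.4 and 228 CPM (ratio 3.77, 1.84 to 8.99), and was the 1 higher member at least 2-fold above its polyp T-like level. Gsta1, Gsta4 and Gsto1 were below their polyp T-like levels, and the part of free RNA was not tested. The retinoic acid-making Aldh1a2, which had 1 UMI in polyp epithelium, was at 52.9 and 74.3 CPM in these fibroblasts and at 69 CPM in polyp smooth muscle-like cells. Cyp1b1, known from mesenchyme, was at 37.8 and 61.9 CPM, with wide intervals that overlap. Gsta3 also had a stromal source, at 166 CPM (104 to 252) in normal and 292 (242 to 350) in polyp fibroblasts, where normal T-like cells held 0.38 CPM.

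Several members belonged to other cells. Cyp26b1, which breaks down retinoic acid, was at 143 CPM (80.0 to 236) in the 35 polyp blood endothelial-like cells and at 0 in T-like cells. Cyp4f18, a leukotriene-hydroxylating P450 of leukocytes, was at 226.5 CPM (132 to 363) in the 15 normal and 95.7 (71.0 to 126) in the 177 polyp macrophage-like cells. B-like cells held 65.2 CPM (40.8 to 98.7) in the normal and 40.2 (20.8 to 70.3) in the polyp library. Plasma-like cells held 36.1 and 20.4 CPM. In the polyp library Gstp3 was highest in T-like cells, at 49.3 CPM (37.5 to 63.5), against 17.4 in epithelium. The normal library had the opposite order, with 4.53 CPM in T-like cells and 26.6 (23.8 to 29.6) in epithelium (28.9 in enterocyte-like cells and 36.5 in epithelial cells with no named type).

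In T-like cells themselves 2 of 15 members with 50 UMIs were lower (10.9% of 5886 genes) and 7 higher (9.82%). In plasma-like cells 1 of 9 was lower (2.76% of 3039 genes) and 3 higher (20.2%). The lower members were Adh1 and Adh6a in T-like cells and Adh6a in plasma-like cells, and the higher ones of plasma-like cells were Gsta1, Gsta4 and Gsto1. In T-like cells Gstm1, Sult1d1, Sult1c2 and Gstp3 were higher as well. Adh6a was at 47.5 CPM in T-like cells of the normal library and had 0 UMIs in those of the polyp library, and Sult1c2 was at 0.755 and 43.4 CPM. Of the 7 members higher in T-like cells, Gstp3 alone was at a higher level there than in polyp epithelium. Whether any of this is made by lymphocytes was not tested.

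The partners of these enzymes were read from 7 lists, 83 of whose 91 genes had 50 UMIs in epithelium. Of these 91 listed genes, 38 of the 83 were lower and 13 higher past 2-fold, beside the 12.7% and 17.6% of all genes. Among sensors and transcription factors 7 of 15 were lower and 0 higher. Nr1i3 (CAR, the receptor that turns on Cyp2b10) had 525 and 2 UMIs, at 41.1 and 0.05 CPM, 814-fold lower (224 to 6735). Vdr, the vitamin D receptor that controls Cyp24a1, was 18.4-fold, Ppara 16-fold, Hnf4g 13.1-fold and Hnf4a 3.53-fold lower, and Nr1i2 (PXR, which controls Cyp3a11) 2.56-fold and Rxra 2.20-fold. Ahr, the receptor that controls Cyp1a1, was not lower: it was at 13.3 and 24.8 CPM (ratio 1.86, 1.58 to 2.20), and its target Tiparp at 75.0 and 70.2 CPM (ratio 0.935, 0.869 to 1.01).

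Electron donors of P450s had 2 of 6 genes lower, Cyb5r3 (3.80-fold) and Cyb5b (2.17-fold), and 0 higher, while Por, the P450 reductase, was at 102 and 67.3 CPM. The NRF2-linked and glutathione list had the opposite balance, with 5 of 12 higher and 1 lower. Me1, a source of NADPH, was at 30.4 and 152 CPM (ratio 5.00, 4.51 to 5.55). Nqo1 was at 64.2 and 181 CPM (ratio 2.82), Gpx2, the intestinal glutathione peroxidase, at 660 and 1440 (ratio 2.18), and Slc7a11 and Hmox1 at ratios of 3.85 and 2.61. Srxn1 was the lower one, at 2.92-fold, and Txnrd1 only just missed the threshold at 1.998-fold lower (1.89 to 2.11). Nfe2l2, the gene of NRF2 itself, was at 295 and 194 CPM. Gclc and Gclm, which make glutathione, were within 2-fold at ratios of 1.35 and 0.735.

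Other detoxification enzymes had 15 of 23 genes lower and 1 higher. Ces2e, a carboxylesterase, was 275-fold (190 to 415), Akr1b7 69.5-fold and Fmo5 25.3-fold lower, while the higher gene was Cbr3, a carbonyl reductase, at a ratio of 2.59. Cofactor supply split by enzyme: Papss2, which makes the sulfate donor PAPS, was at 557 and 55.0 CPM (10.1-fold lower, 9.65 to 10.6), and Papss1, its sister enzyme, at 24.3 and 55.7 (ratio 2.30, 2.04 to 2.60). Ugdh, which makes UDP-glucuronic acid, was 2.19-fold lower, and the sulfate transporter Slc26a2 was at a ratio of 4.02 (3.65 to 4.44).

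Exporters were lower in 7 of 11 and higher in 3. The basolateral bile acid exporter subunits Slc51a and Slc51b were 354-fold and 2296-fold lower (741 and 1 UMIs for Slc51b), and the apical pumps Abcc2, Abcb1a and Abcg2 were 220-, 63.1- and 54.8-fold lower. Abcg5 and Abcg8, which form the sterol exporter, were 7.52- and 13.5-fold lower. The higher ones were Abcc4 (3 and 388 UMIs, ratio 41.7, 14.2 to 203), Abcb1b (3 and 111 UMIs, ratio 11.9, 3.98 to 58.8) and Abcc1 (ratio 3.32, 2.51 to 4.47). Abcb1a and Abcb1b, sister genes of the drug pump P-glycoprotein, thus stood on opposite sides of the comparison.

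Among retinoid partners 4 of 10 were lower. Rbp2, the retinol-binding protein of enterocytes, was at 7102 and 275 CPM (25.8-fold lower), with Lrat 48.4-fold, Rdh7 35.9-fold and Bco1, which cleaves beta-carotene, 2.44-fold lower. Rarg, a retinoic acid receptor, had 0 and 177 UMIs, at least 19.0-fold higher.

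**Figure D5:**
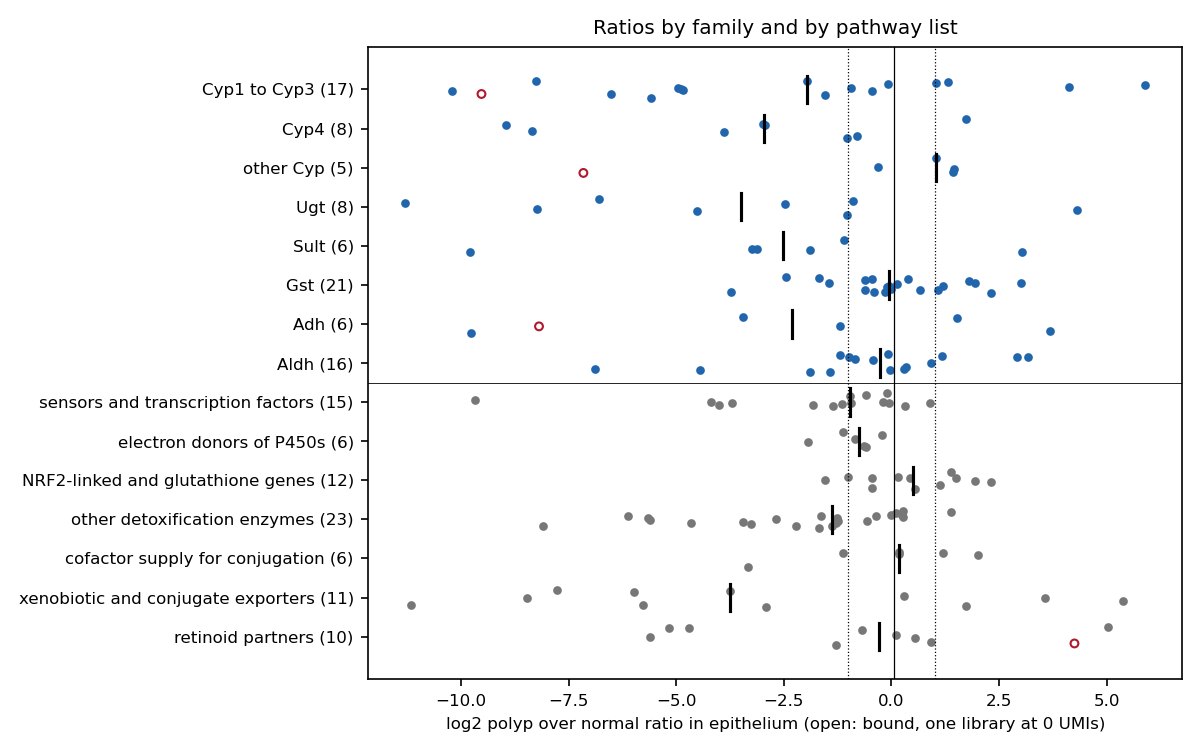
Polyp over normal ratio in epithelium on the log2 scale for each member by family (blue) and each pathway gene by list (grey), with the number of genes in brackets, the group median as a black bar, the median of all genes as a solid line and 2-fold as dotted lines. Open circles are bounds where 1 library had 0 UMIs; the Ugt, Cyp4 and exporter groups lie furthest left and Gst centres on 0.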

How the data were processed

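Single-cell 3′ RNA-seq (10x, version 3 chemistry) was made from 2 libraries, each pooling 3 mice whose tissue was digested with 0.2% collagenase type II. The authors deposited UMI counts per gene and barcode, not normalized. The submitters' processing notes name Cell Ranger 3.0.0 and mm10, whereas the file headers name Cell Ranger 5.0.0.

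From these counts, barcodes with at least 500 UMIs, 250 genes and at most 25% mitochondrial UMIs were kept. Scrublet's automatic threshold marked 0 doublets in both libraries, so cells were removed from the top of the score until the rate expected for the loading was reached (85 normal and 573 polyp cells). Cells above 10% ribosomal RNA repeats (1232 normal, 1138 polyp) and cells under 1000 UMIs were set apart. The rest were named by marker UMIs, none of them a member of the families. Epithelial marker levels lay near the limit in 47 of 2022 normal and 470 of 5954 polyp cells. Markers of the Chil4-high class were added after clusters had been seen.

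UMIs were summed by class and library. Ratios used genes with at least 50 UMIs in a class, classes of at least 20 cells in each library, and a threshold of 2-fold. A library at 0 UMIs was set to a floor of 3. Sums were scaled by total UMIs. With 1 library per group no test was made, and intervals cover counting error only. The interval code was tested on simulated data. Gene names came from the files, coordinates from GENCODE and promoters from RefSeq. Scanpy 1.11.5, scipy 1.17.1 and numpy 2.4.6 were used.

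Members and lists were chosen with earlier results of these data known. Members named in the text were those furthest from equal levels in either direction, the highest of each family and class, and all members behind a count of 5 or fewer; a few others were named after their values were seen. Alternatives changed the cell filter, doublet removal, naming, scaling, UMI minimum, fold and free RNA. The result for 1 gene of the retinoid list is not reported here.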

Additional observations from a re-analysis of the deposited data

Results flagged for a closer look

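Gstm1 and Gstm2 differed in opposite directions between cell classes. The polyp over normal ratio of Gstm2 was 0.475 in fibroblast-like cells, 3.81 in epithelium and 14.2 (2.47 to 568) in enteroendocrine-like cells, where the normal library had 1 UMI. That of Gstm1 was 0.385 in fibroblast-like and 8.83 (2.96 to 43.4) in enteroendocrine-like cells, with 3 normal UMIs in the latter. With 1 library per group, the difference between classes was not tested.

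Cyp11a1, which starts steroid synthesis from cholesterol, had 44 UMIs and fell under the minimum. Of these, 33 lay in the 51 polyp mast-like cells, at 242 CPM (167 to 340), and 1 in the normal library.

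Barcodes over the mitochondrial limit, 6453 normal and 5606 polyp, were outside every comparison above. Among members with at least 20 UMIs there, 35 of the 41 that were lower in polyp epithelium were also lower past 2-fold, and 18 of 18 measured higher ones were also higher. The number past 2-fold in the opposite direction was 0. Over all genes measured in both, 85.7% of the 1493 that were lower in polyp epithelium were also lower there and 79.2% of the 1719 higher ones were also higher, while 20.7% and 16% of all 12143 genes were past 2-fold in each direction.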

How the results depend on the processing

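Over all alternatives 27 of 169 counts or levels moved by over 1.5 times, or to or from 0. Of 275 values of single members 38 moved and 0 changed direction. These members had been picked as those furthest from equal levels in the same data, so a change of direction was unlikely from the start. In epithelium the other alternatives gave 35 to 57 members lower and 16 to 26 higher. The number of members measured and the share of all genes past the threshold change with the setting too and are not given here. These ranges are therefore no result about the members against all genes. In epithelial cells with no named type, an alternative added after the data had been seen, 24 of 64 were lower (12.3% of all genes), and 12 of the 14 member ratios that it gave moved. The size of large folds was less stable than their direction: 15 of 22 named ratios moved by over 1.5 times under at least 1 of the other settings. Sult6b2 ranged from 275- to 16013-fold lower, Adh6a from 334 to 2587, Ugt2b5 from 705 to 2636, Cyp3a11 from 663 to 1325, Ugt2b36 from 95.2 to 1115, Cyp4a10 from 90.8 to 347, Cyp3a25 from 92.2 to 322 and Aldh1b1 from 62.6 to 124, with bounds of 276 to 921 for Adh4 and 111 to 374 for Cyp24a1. Of the higher members, Cyp2c23 ranged from 38.0 to 117, Ugt8a from 15.6 to 33.1, Cyp2d34 from 5.81 to 22.1, Aldh3a1 from 4.19 to 13.1 and Gsta3 from 4.82 to 11.3.

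Counts in small classes moved more, and the cause was not tested. Each is given with the members measured and, in brackets, the share of all genes past the same threshold in that direction. With a stricter cell filter 0 of 6 plasma-like members were lower (2.79%), and gland mucous cells were too few for a value. With no cell filter 1 of 43 gland mucous (2.55%) and 2 of 10 plasma-like members (2.71%) were lower. Naming by cluster gave 4 of 20 higher in gland mucous (5.63%), 1 of 12 lower in fibroblast-like (7.24%), and 2 of 12 lower (2.57%) and 6 higher (20.7%) in plasma-like cells. Relative to the median gene 2 of 41 were lower in gland mucous (5.06%) and 2 of 9 in plasma-like cells (5.59%), and with a mean over cells 1 of 41 in gland mucous (4.70%). At 20 UMIs enteroendocrine-like cells had 10 of 37 lower (14.7%), T-like cells 6 of 34 lower (13.0%) and 14 higher (12.5%), and plasma-like cells 2 of 21 lower (2.92%) and 7 higher (27.5%). With no minimum, enteroendocrine-like cells had 24 of 90 lower (18.5%), gland mucous 16 of 91 (9.35%), fibroblast-like cells 15 of 75 lower (17.5%) and 7 higher (7.80%), T-like cells 8 of 85 lower (10.7%) and 29 higher (18.1%), and plasma-like cells 8 of 75 lower (4.31%) and 21 higher (26%). At 1.5-fold gland mucous had 3 of 41 lower (7.07%), and plasma-like cells 2 of 9 lower (4.74%) and 6 higher (43.7%). No paired analysis was possible because each group has 1 library, and none could be left out.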
